A study of Mus musculus with 12 samples.

Results

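Genes of the bone morphogenetic protein (BMP) pathway were followed in mouse embryonic stem cells, namely the ligand gene Bmp4, the secreted antagonist genes Grem1, Nog and Chrd, the inhibitors Bambi, Smad6 and Smad7, and the target genes Id1, Id2 and Id3. These 10 genes were chosen by symbol, and all were found among the 22753 genes of the count table. The cells came from clones 4 and 10 of a line that carries floxed alleles of Sphk1 and null alleles of Sphk2, the genes of both sphingosine kinases, so by label every library is Sphk2-/-. Both clones were grown with serum and leukemia inhibitory factor, exposed to 6 uM 4-hydroxytamoxifen for 48 hours and sorted for Cre-GFP. GFP-negative cells are labelled Sphk1 fl/fl Sphk2-/- and GFP-positive cells Sphk1-/- Sphk2-/-. Each clone gave 3 libraries per gate, 12 in all, at labelled passages 11 to 20. In 5 of the 6 pairs that share clone and replicate number, GFP-positive cells are labelled 1 passage after their partner, so there the gate and the labelled passage cannot be told apart. The passage numbers of replicates 2 and 3 run on without a gap from library to library, so they may be uncertain. Both gates received the drug, and each clone is a single line, so a difference between them is one between 2 lines. Nothing in the labels says that replicates were separate cultures, so each p-value reflects only how much these libraries vary, in part perhaps for technical reasons.

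BMP ligands bind paired receptor kinases at the cell surface, which phosphorylate SMAD1, SMAD5 and SMAD9; with SMAD4 these enter the nucleus and switch on target genes, the Id genes foremost. Gremlin 1, noggin and chordin, the products of Grem1, Nog and Chrd, bind the ligands outside the cell, while BAMBI is a decoy receptor and SMAD6 and SMAD7 are inhibitory SMADs inside the cell, themselves induced by the pathway. In mouse embryonic stem cells, BMP4 or serum together with leukemia inhibitory factor maintains self-renewal through Id proteins, which hold back differentiation factors of the helix-loop-helix class.

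The DNA just before the start of 3 of these genes is shown, the ligand and 2 of its antagonists, so that their upstream sequence can be read beside their levels. Of the 3, Grem1 was called in the tests described here, and Chrd and Bmp4 were not. Each run is the 250 bases upstream of the start in the RefSeq annotation of GRCm38.p6, the build also called mm10, written 5′ to 3′ on the strand of the gene. Capitals mark the palindrome GGCGCC and the letters CAGAC, or GTCTG on the other strand, which are known as motifs that SMAD proteins can bind. The Grem1 window is chr2:113758649-113758898 on the minus strand, the Chrd window chr16:20732877-20733126 on the plus strand and the Bmp4 window chr14:46390670-46390919 on the minus strand.
Grem1: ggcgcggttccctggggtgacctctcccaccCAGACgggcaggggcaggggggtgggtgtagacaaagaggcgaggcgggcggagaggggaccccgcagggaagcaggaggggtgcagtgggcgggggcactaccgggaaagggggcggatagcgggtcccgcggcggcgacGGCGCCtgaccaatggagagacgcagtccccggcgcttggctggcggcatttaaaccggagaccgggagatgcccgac
Chrd: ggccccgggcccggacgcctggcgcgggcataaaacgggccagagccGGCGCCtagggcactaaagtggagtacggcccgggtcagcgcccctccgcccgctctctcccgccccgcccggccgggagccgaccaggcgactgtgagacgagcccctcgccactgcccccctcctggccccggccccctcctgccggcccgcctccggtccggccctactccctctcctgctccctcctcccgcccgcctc
Bmp4: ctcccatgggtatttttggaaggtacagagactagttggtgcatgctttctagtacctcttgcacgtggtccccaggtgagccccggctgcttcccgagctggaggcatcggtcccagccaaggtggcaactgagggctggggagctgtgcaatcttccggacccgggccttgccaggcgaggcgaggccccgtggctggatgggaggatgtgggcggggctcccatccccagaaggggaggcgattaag
Grem1 has GGCGCC with its first base at -78 and CAGAC at -219, counted back from the start, Chrd has GGCGCC at -203, and Bmp4 has neither. Of 32817 upstream windows of the same length, 9.59% hold GGCGCC and 42.2% hold CAGAC or GTCTG. The 3 windows are rich in G and C, at 72% for Grem1, 78% for Chrd and 63.2% for Bmp4.

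Library depth ran from 12968916 to 34258395 counts, the shallowest being clone 10 GFP-negative replicate 1, which also had the lowest share of mitochondrial counts (0.143%). The 10 pluripotency markers examined were present in every library, with a summed level of 5426 to 11320 CPM, the count of a gene scaled to the total count of its library. Sphk1, the targeted gene, had a log2 change of -0.61 in GFP-positive cells within pairs (SE 0.25, edgeR adjusted p = 0.166) over both clones, with almost no change in the replicate 1 pairs (-0.02 in clone 4 and 0.05 in clone 10). Sphk2 was counted in every library, at 1.19 to 8.34 CPM, with a change of 0.12 (SE 0.22, edgeR adjusted p = 0.727). The deleted exons of either gene are not named in the labels, so these gene-level values do not check the genotypes.

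The 2 gates of a clone shared variation within a replicate number, so each change was fitted both over all libraries and within the 6 pairs. Calls were made with edgeR's quasi-likelihood test at 0.05, after Benjamini-Hochberg adjustment over 15179 genes. All 10 genes passed the filter on low counts. Over all libraries, 0 of the 10 were called in clone 4 (background 0% of tested genes), in clone 10 (0%), over both clones (0.158%) or in the difference between clones (0%). Before adjustment, Grem1 in clone 4, Id2 in clone 10 and both genes over the clones together passed 0.05 in this edgeR fit, as did 1.38%, 7.45% and 6.77% of all genes in the same comparisons. DESeq2 without the pairs called Grem1 in clone 4, and Grem1 and Id2 over both clones. The share of all genes that DESeq2 called is not given here, so these calls lack a background. Within pairs, edgeR called 3 of the 10 over both clones against 3.36% of all genes, 2 of 10 in clone 10 against 4.22%, 0 in clone 4 against 0.119% and 0 in the difference between clones against 0%. The 3 were Grem1 and Smad7, which fell in GFP-positive cells, and Id2, which rose. Over both clones the median log2 change within pairs was -0.21 for the 10 genes and 0.00 for all genes tested.

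**Figure D1:**
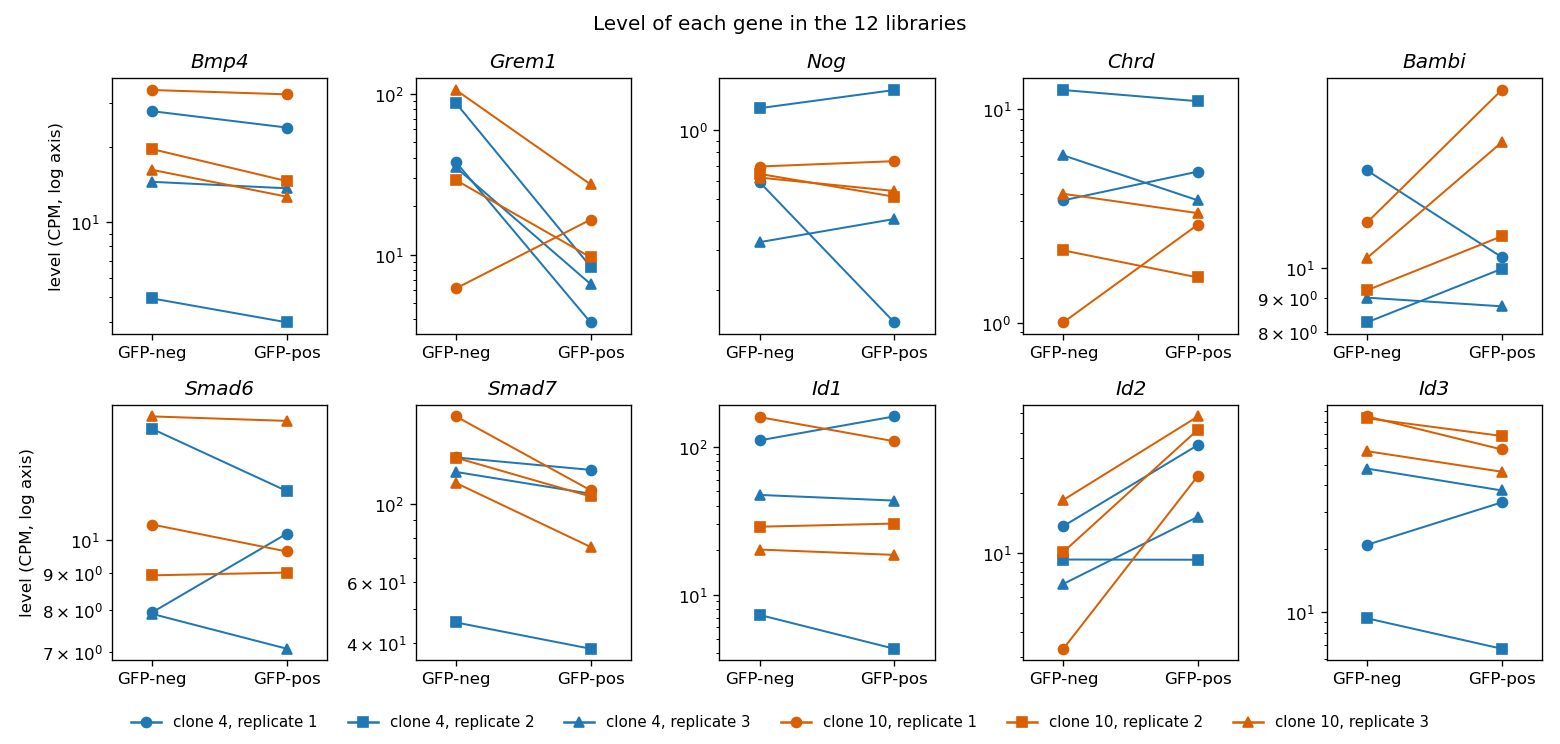
Level of each of the 10 genes (CPM, log axis, a separate range per panel) in the 12 libraries, with a line joining the GFP-negative and GFP-positive library of a pair; colour gives the clone and the symbol the replicate number. Smad7 goes down and Id2 stays level or goes up along every line, Grem1 goes down along 5 of 6, and Id1 runs from 4.31 to 160.6 CPM with little order by gate.

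Levels per kilobase of exon differed widely among the genes. Id1 was the most abundant transcript, at a mean of 53.1 CPM per kb over the 12 libraries, and ran from 3.71 to 138.4. Id3 (mean 25.9) and Smad7 (23.9) followed, with overlapping ranges of 3.76 to 47.4 and 8.53 to 39.5. Bmp4 (8.11), Id2 (8.03) and Grem1 (7.47) lay close together and their ranges overlapped throughout. Smad6 (3.29) and Bambi (2.25) were lower and varied least, and Chrd (0.756) and Nog (0.392) were the scarcest. Neighbours in this order did not separate beyond their spread, since each range over the libraries overlapped the next.

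The ligand gene Bmp4 (ENSMUSG00000021835, mm10 chromosome 14, 46383520 to 46390669) differed more between pairs than between gates. In clone 4 it stood at 27.9, 4.95 and 14.5 CPM in GFP-negative replicates 1 to 3 and at 24.0, 3.97 and 13.7 CPM in their GFP-positive partners. In clone 10 the GFP-negative replicates held 33.9, 19.6 and 16.2 CPM and the GFP-positive ones 32.6, 14.6 and 12.7 CPM. Each partner lay a little below its GFP-negative library in CPM, in 6 of 6 pairs, or in 5 of 6 with the effective library sizes of the fit, while the groups overlapped in both clones. The log2 change within pairs was -0.29 (SE 0.10, unadjusted p = 0.0157) over both clones and was not called (edgeR adjusted p = 0.129). Within a clone the pair means spread with an SD of 1.05 on the log2 scale, pooled over both clones and wider than for 94.6% of genes tested. The SD of the change within pairs, pooled the same way, was 0.12.

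Grem1 (ENSMUSG00000074934, chromosome 2, 113746164 to 113758646), which encodes the antagonist gremlin 1, had the largest change of the 10 genes over both clones and was lower in GFP-positive cells. GFP-negative cells of clone 4 held 37.5, 87.2 and 34.8 CPM, and their GFP-positive partners 3.80, 8.42 and 6.57 CPM. In this clone every GFP-positive library was below every GFP-negative one. GFP-negative cells of clone 10 held 6.17, 29.0 and 105.2 CPM and GFP-positive cells 16.5, 9.63 and 27.3 CPM. Here the groups overlapped, and replicate 1, whose GFP-negative library was the lowest of its group, went the other way. Over both clones the log2 change within pairs was -1.99 (SE 0.37, 95% interval -2.83 to -1.14, edgeR adjusted p = 0.0290), lower in 5 of 6 pairs. Over all libraries it was -2.24 (SE 0.53, edgeR adjusted p = 0.123). By clone it was -3.00 in clone 4 (SE 0.53, edgeR adjusted p = 0.0781) and -0.98 in clone 10 (SE 0.53, edgeR adjusted p = 0.272), both within pairs.

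The difference between the clones' Grem1 changes was 2.02 on the log2 scale (SE 0.72, unadjusted p = 0.0216), which did not pass (edgeR adjusted p = 0.606). Without the pair of clone 10 replicate 1, the clone 10 change was -1.80 (edgeR adjusted p = 0.00511) and that of clone 4, -2.98, was called as well (edgeR adjusted p = 0.000258). That was the 1 removal of 6 that gave a call in either clone. Over the removals the clone 10 change ran from -1.80 to -0.35 (edgeR adjusted p up to 0.745), the smallest being without clone 10 replicate 3, and without replicate 2 it was -0.58. The clone 4 change ran from -3.35 to -2.81 (edgeR adjusted p up to 0.794). The call over both clones, however, was lost without any one of the other 5 pairs, with edgeR adjusted p up to 0.146 and log2 changes of -2.39 to -1.67 over the 6 removals. In the authors' deposited table for clone 4, Grem1 had the smallest p of all genes, with a log2 change of -1.87 (adjusted p = 9.59e-06), and it was among 8 genes listed as changed. In the authors' deposited table for clone 10 the log2 change of Grem1 was -0.80 (adjusted p = 0.547). The authors' values, here and below, come from their own fit of each clone. Their sizes are therefore not directly comparable with the changes fitted here.

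Fibroblast markers moved with Grem1. Of 16 such genes 15 were tested, and 6 of them, Postn, S100a4, Dcn, Acta2, Tagln and Timp1, fell within pairs over both clones, the list having a median log2 change of -0.87. The summed level of the list went from 335.3 to 174.2, from 895.3 to 390.3 and from 518.8 to 182.6 CPM in the pairs of clone 4. In clone 10 it went from 198.6 to 252.3, from 484.5 to 275.5 and from 1342 to 738.6 CPM, so replicate 1 was the exception here as it was for Grem1. At most 1 of the 16 markers was at 0 in any library, with a range of 198.6 to 1342 CPM in GFP-negative and 174.2 to 738.6 CPM in GFP-positive libraries. Over the 12 libraries Grem1 and the mean of the 15 markers had r = 0.897, as a description, since the libraries share depth and pairs. The gene most like Grem1 in profile was S100a4, itself on the list (r = 0.954 over 12 libraries), then Tm4sf1 (0.940) and Zeb2 (0.924). In clone 4 the Grem1 change within pairs was -3.00, and the 15 markers ran from -2.72 to 0.12 with a median of -1.34. In clone 10 the Grem1 change was -0.98, and the markers ran from -1.26 to -0.04 with a median of -0.45. In bulk RNA, fewer cells of a type and less RNA per cell cannot be told apart, and the part of these markers in the Grem1 result was not tested.

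**Figure D2:**
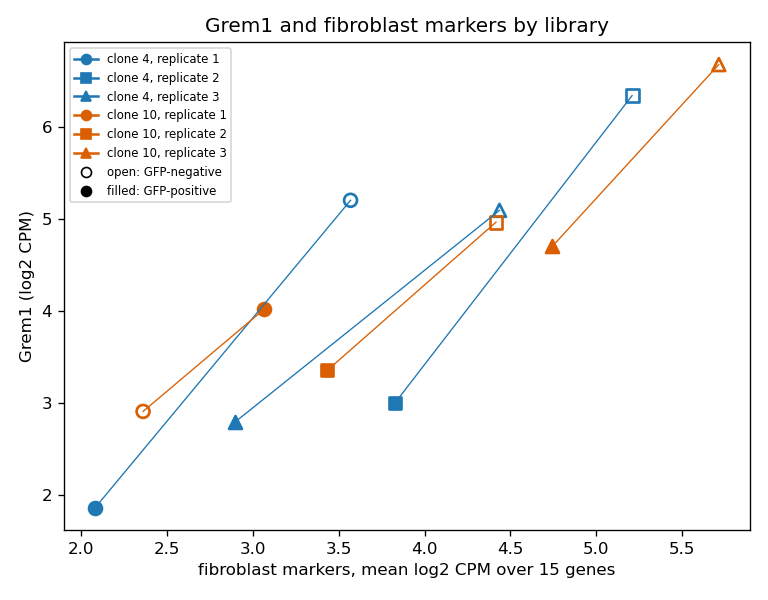
Grem1 (log2 CPM) against the mean log2 CPM of 15 fibroblast markers in each library; open symbols are GFP-negative, filled ones GFP-positive, and lines join pairs. Both measures are lower in the GFP-positive library of 5 pairs and higher in that of clone 10 replicate 1.

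The other antagonist genes were not called. Nog, which encodes noggin, had the lowest CPM of the 10 genes. Its levels were 0.593, 1.25 and 0.324 CPM in clone 4 GFP-negative cells and 0.144, 1.501 and 0.409 CPM in their partners. In clone 10 they were 0.694, 0.644 and 0.621 CPM against 0.733, 0.512 and 0.542 CPM. The groups overlapped in both clones, and the change within pairs was -0.24 (95% interval -1.03 to 0.55, edgeR adjusted p = 0.669). Chrd, which encodes chordin, stood at 3.74, 12.3 and 6.07 CPM in clone 4 GFP-negative cells and at 5.10, 10.9 and 3.74 CPM in GFP-positive cells. In clone 10 it was at 1.00, 2.18 and 4.01 CPM against 2.88, 1.63 and 3.25 CPM. One pair of each clone rose and 2 fell, for a change of -0.06 within pairs (95% interval -0.59 to 0.48, edgeR adjusted p = 0.892). The sign of the Nog and Chrd changes turned when some pairs were left out.

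Among the inhibitors, Smad7 (ENSMUSG00000025880, chromosome 18, 75367529 to 75395935) fell in GFP-positive cells and was lower there in 6 of 6 pairs. Clone 4 had 136.2, 45.8 and 123.8 CPM in GFP-negative and 125.5, 38.5 and 107.2 CPM in GFP-positive cells, which overlap. Clone 10 had 178.6, 136.0 and 115.1 CPM against 109.7, 105.3 and 75.5 CPM, which do not. The log2 change within pairs was -0.68 in clone 10 (SE 0.14, edgeR adjusted p = 0.0292), -0.18 in clone 4 (SE 0.14, edgeR adjusted p = 0.730) and -0.43 over both (SE 0.10, 95% interval -0.64 to -0.21, edgeR adjusted p = 0.0492). The changes of the clones differed by -0.50 (95% interval -0.94 to -0.07, unadjusted p = 0.0275), which did not pass (edgeR adjusted p = 0.623). Over all libraries the change over both clones was -0.43 with an SE of 0.34 (edgeR adjusted p = 0.778).

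The Smad7 calls depended on single pairs. Over both clones, 2 of 6 removals of a pair kept the call, those of clone 10 replicates 1 and 2 (edgeR adjusted p 0.0238 to 0.191 over the 6). In clone 10 the call was lost without any clone 4 pair or clone 10 replicate 3, and with only the libraries of clone 10 (edgeR adjusted p = 0.147). Over all 6 removals, including those that kept the call, the clone 10 change ran from -0.83 to -0.52. In summed level the pluripotency markers moved the same way as Smad7. Their mean log2 CPM, however, rose from 8.98 to 9.07 in clone 4 replicate 3. It fell in the other pairs, though barely in clone 4 replicate 2 (8.43 to 8.42). Their summed level went from 9639 to 7225, from 5580 to 5426 and from 6858 to 6841 CPM in the pairs of clone 4 and from 11320 to 7149, from 8049 to 7433 and from 7928 to 6425 CPM in those of clone 10. None of the 10 markers was at 0 in any library, and within pairs 1 of them, Lin28a, fell in clone 10 and 0 were called over both clones, with 9 of 10 changes below 0. Their part in the Smad7 result was not tested. In the authors' deposited table for clone 10, Smad7 had a log2 change of -0.63 (adjusted p = 0.471).

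Smad6 and Bambi, the other inhibitors, varied little. Smad6 ran from 7.06 to 14.8 CPM over the 12 libraries. In log2 CPM, which uses the effective library sizes of the fit, its range was 1.94-fold. Its change within pairs was -0.09 (95% interval -0.37 to 0.20, edgeR adjusted p = 0.673). Bambi stood at 14.0, 8.28 and 9.02 CPM in clone 4 GFP-negative cells and 10.4, 9.97 and 8.76 CPM in GFP-positive cells. In clone 10 it was at 11.7, 9.26 and 10.4 CPM against 18.6, 11.2 and 15.5 CPM, higher in 3 of 3 pairs, though the groups overlapped. Its log2 change within pairs in clone 10, 0.38 (95% interval -0.04 to 0.81), did not pass (edgeR adjusted p = 0.228).

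Id2 (ENSMUSG00000020644, chromosome 12, 25093801 to 25096092), a target gene whose protein blocks helix-loop-helix factors, rose in GFP-positive cells. Clone 10 had 3.32, 10.1 and 18.4 CPM in GFP-negative and 24.3, 41.5 and 48.3 CPM in GFP-positive cells. All GFP-positive libraries of this clone lay above all GFP-negative ones. Clone 4 had 13.6, 9.27 and 7.001 CPM against 34.7, 9.25 and 15.2 CPM, so the groups overlapped and replicate 2 was level. The log2 change within pairs was 1.93 in clone 10 (SE 0.29, edgeR adjusted p = 0.0108), 0.86 in clone 4 (SE 0.29, edgeR adjusted p = 0.535) and 1.39 over both (SE 0.21, 95% interval 0.93 to 1.86, edgeR adjusted p = 0.0104). Over all libraries the last value was 1.38 (SE 0.40, edgeR adjusted p = 0.254).

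The Id2 call in clone 10 held in 6 of 6 removals of a pair, with changes of 1.68 to 2.25. Over both clones it held in 5 of 6 and was lost without clone 4 replicate 1 (edgeR adjusted p = 0.0779). The changes of the clones differed by 1.07 (95% interval 0.15 to 1.99, unadjusted p = 0.0280), which did not pass (edgeR adjusted p = 0.623). In the authors' deposited table for clone 10, Id2 had a log2 change of 1.26 (adjusted p = 0.0399). Genes of the 2-cell embryo, the Zscan4 family among them, also moved with the gate, 9 of the 10 listed rising within pairs over both clones. Their summed level went from 14.0 to 218.3, from 3.54 to 29.8 and from 5.34 to 21.6 CPM in the pairs of clone 4 and from 156.2 to 3234, from 77.2 to 665.7 and from 64.7 to 2141 CPM in those of clone 10. In clone 4 replicate 2 they were higher in the GFP-positive library while Id2 was level. In each pair the mitochondrial share of counts was also higher on the GFP-positive side, and the part of either in the Id2 result was not tested.

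Id1 and Id3, the other target genes, were not called. Id1 stood at 110.6, 7.29 and 47.3 CPM in clone 4 GFP-negative cells and 160.6, 4.31 and 43.3 CPM in GFP-positive cells. In clone 10 it was at 158.8, 28.8 and 20.2 CPM against 109.1, 30.3 and 18.6 CPM. Replicate 1 was high and clone 4 replicate 2 low in both gates, and the change within pairs was -0.18 (95% interval -0.56 to 0.20, edgeR adjusted p = 0.487). Id3 stood at 20.9, 9.38 and 48.0 CPM in clone 4 GFP-negative cells and 33.2, 6.73 and 37.9 CPM in their partners. In clone 10 it was at 84.9, 83.2 and 58.1 CPM against 59.2, 68.6 and 46.4 CPM. It was lower on the GFP-positive side in 5 of 6 pairs, with a change of -0.26 within pairs (95% interval -0.59 to 0.08, edgeR adjusted p = 0.278).

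**Figure D3:**
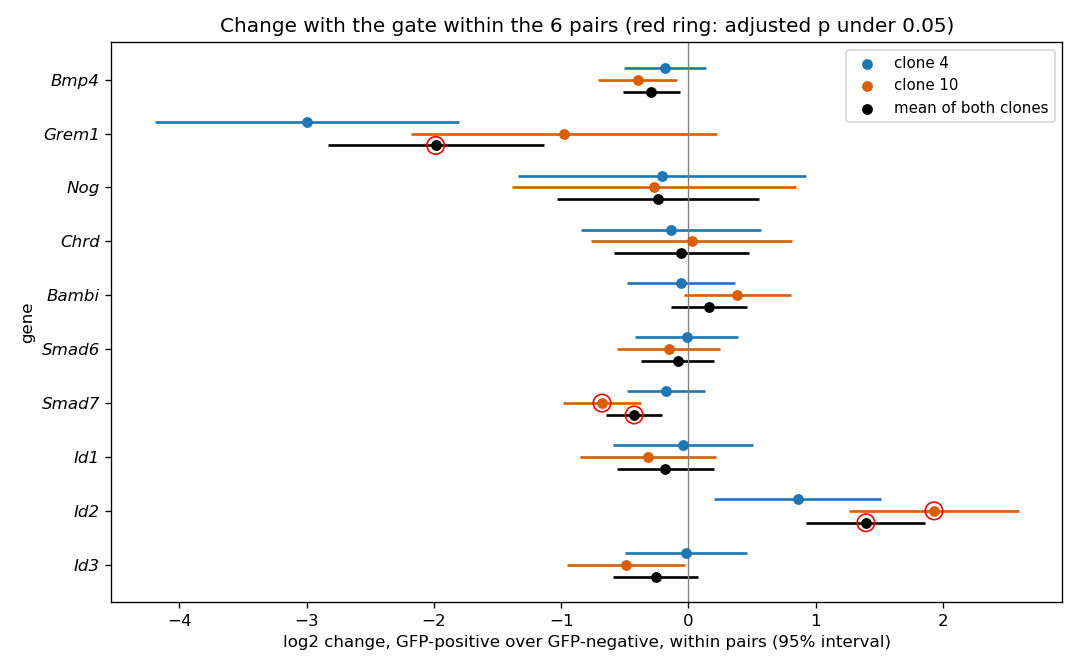
Log2 change of each gene in GFP-positive over GFP-negative cells within pairs, with its 95% interval, for clone 4, clone 10 and their mean; a red ring marks an edgeR adjusted p under 0.05. Rings stand on Grem1 (-1.99), Smad7 (-0.43) and Id2 (1.39) for the mean and on Smad7 (-0.68) and Id2 (1.93) for clone 10.

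Clone 10 was set against clone 4 within each gate, over all libraries. Replicates 2 and 3 are labelled passages 17 to 20 in clone 10 and 13 to 16 in clone 4, so clone and labelled passage cannot be told apart in them. Libraries of the clones also varied together across numbers, as clone 4 replicate 3 did with clone 10 replicate 2 (deviations correlated at 0.54 to 0.683), which this fit does not take into account. None of the 10 genes was called, 0 of 10 in GFP-negative cells against 0.0461% of all genes and 0 of 10 in GFP-positive cells against 1.11%. At an unadjusted p under 0.05 there were 2 in GFP-negative cells, Id3 and Chrd, and 2 in GFP-positive cells, Chrd and Bambi, against 11.9% and 14.3% of all genes, a share near the background. Id3 had a log2 difference of 1.70 in GFP-negative cells (SE 0.64, edgeR adjusted p = 0.329) and 1.18 in GFP-positive cells (SE 0.63, edgeR adjusted p = 0.432), the clone 10 values lying above all clone 4 values in both gates. Chrd had -1.48 (SE 0.56, edgeR adjusted p = 0.335) and -1.31 (SE 0.56, edgeR adjusted p = 0.304), its clones overlapping in GFP-negative cells and not in GFP-positive ones. The same held for Bambi and Grem1. In GFP-positive cells Bambi had 0.66 (SE 0.30, edgeR adjusted p = 0.344) and Grem1 1.51 (SE 0.73, edgeR adjusted p = 0.382). In GFP-negative cells they had 0.17 and -0.10.

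The pairs differed from each other far more than the gates did for several of these genes. The SD of pair means was taken within each clone and pooled over both clones. Its median was 0.73 on the log2 scale for the 10 genes and 0.41 for all genes tested. For the changes within pairs, pooled the same way, the median SD was 0.49 against 0.34. Id1 had an SD of 1.97 between pairs, wider than for 99.8% of genes, beside a change with the gate of -0.18 over both clones. Id3 had 0.95 beside -0.26. Grem1 was not among these genes. Its change with the gate, -1.99, was larger than its SD between pairs, 0.90, and its changes within pairs had an SD of 1.26. Smad6 (0.32) and Bambi (0.26) were among the steadier genes.

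Pair means of Bmp4 ran in the same order as those of Id1 and Smad7 in both clones. The pair of clone 4 replicate 2 was the lowest for all 3 genes, at log2 CPM of 2.08 for Bmp4, 2.41 for Id1 and 5.30 for Smad7. The pair of clone 10 replicate 1 was the highest, at 5.18, 7.16 and 7.25. Over the 6 pairs Bmp4 had r = 0.960 with Smad7 (rho 0.943) and r = 0.947 with Id1 (rho 0.943). Of 15178 other genes, 0.791% had a higher r with Bmp4 than Smad7 had and 1.25% a higher one than Id1. Without the 2 pairs farthest from the median Bmp4 level, the r was 0.673 for Smad7 and 0.841 for Id1. These are descriptions over 6 points, 3 to a clone, that share clone and depth. Libraries also varied together across the clones. Deviations correlated at 0.399 to 0.588 between the replicates 1 and at 0.387 to 0.53 between clone 4 replicate 2 and clone 10 replicate 3. For clone 4 replicate 3 and clone 10 replicate 2 they correlated at 0.54 to 0.683. The order in one clone is therefore not independent of that in the other.

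The remaining genes followed Bmp4 less closely. Bambi (r = 0.813), Id3 (0.798) and Chrd (-0.861) rested on the outlying pairs, since without the same 2 the values were 0.308, -0.511 and -0.064. Grem1 (-0.558), Nog (-0.562), Smad6 (-0.312) and Id2 (0.282) had weaker values of r. By rank, however, Grem1 ran nearly opposite to Bmp4 (rho -0.886). Without the same 2 pairs the r was -0.689 for Grem1, -0.516 for Nog, -0.366 for Smad6 and 0.177 for Id2.

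**Figure D4:**
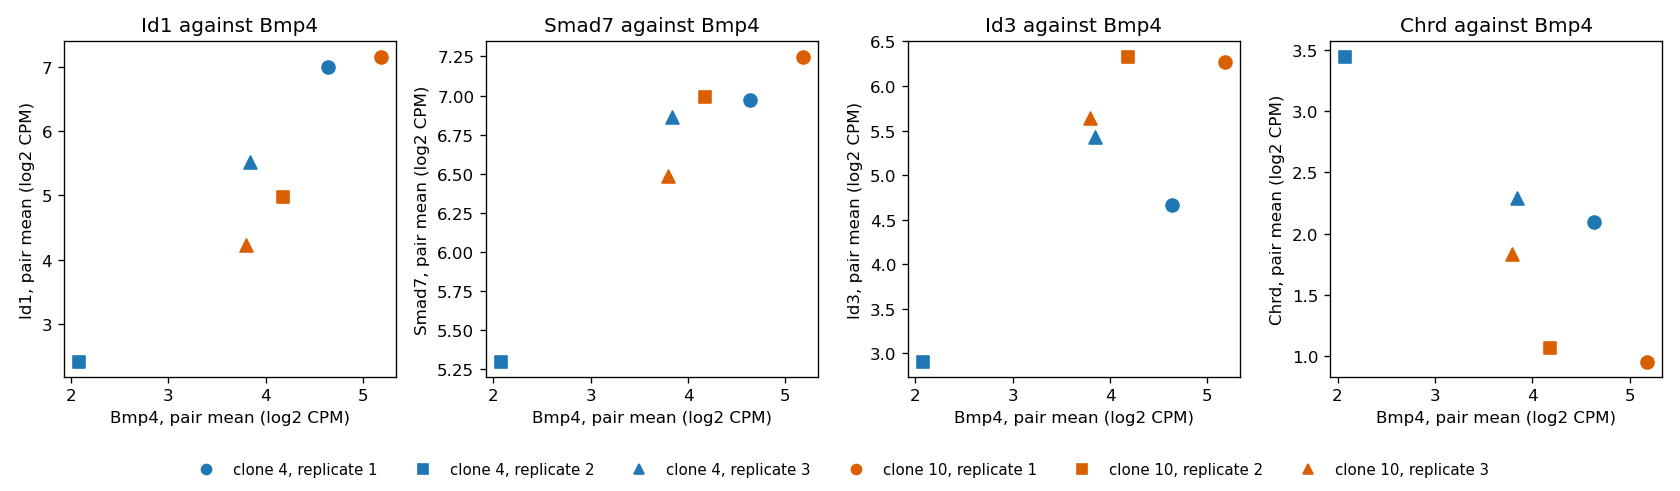
Pair means of Id1, Smad7, Id3 and Chrd against that of Bmp4 (log2 CPM), with 1 point per pair, the colour giving the clone and the symbol the replicate number. Id1 and Smad7 rise with Bmp4 along the 6 points, while for Id3 and Chrd the pair at the far left, clone 4 replicate 2, stands apart from the others.

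Profiles over the 12 libraries were also compared with all other tested genes. Closest to Id1 were Hbegf, an epidermal growth factor family ligand (r = 0.979), Sfn (0.953) and Ngfr (0.944), and closest to Bmp4 were Commd5 (0.968), Dynll1 (0.959) and Sfn (0.958). Smad7 was closest to Ctdsp1, a phosphatase gene listed here among the brakes of the pathway (0.980), then to Swsap1 (0.978) and the immediate early gene Ier2 (0.976). Id2 was closest to Mcam (0.922), Gca (0.913) and C4b (0.912), and Id3 to Midn (0.975), Akt1s1 (0.971) and Cpsf4l (0.968). For Chrd they were Slc9a5, Mfsd7a and Katnal1 (0.966 to 0.977), and for Nog Tmem55b, Rasgef1a and Vps11 (0.886 to 0.902). For Bambi they were Mrpl32, Pemt and 2610001J05Rik (0.918 to 0.967), and for Smad6 Arhgap9, Fam53b and Vps8 (0.927 to 0.958).

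Few other genes of the pathway were called. Of 64 other ligands, receptors, transducers, modulators, brakes and target genes, 53 were tested. Over all libraries 0 were called in any comparison. Within pairs 0 rose and 1 fell over both clones, 1 rose and 0 fell in clone 10, and 0 changed in clone 4, against the background shares given for the same fits. The gene that fell was Nbl1, another secreted BMP antagonist of the DAN family, with a log2 change of -0.79 (SE 0.14, edgeR adjusted p = 0.0249), lower in 6 of 6 pairs. The gene that rose in clone 10 was Eng, which encodes the co-receptor endoglin (0.60, SE 0.13, edgeR adjusted p = 0.0416).

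By role, the median log2 changes within pairs over both clones were 0.43 for the 9 ligands tested, 0.25 for the 7 receptors and 0.18 for the 4 co-receptors. They were 0.30 for the 4 transducers, -0.12 for the 10 extracellular modulators, 0.08 for the 8 brakes and 0.05 for the 11 target genes. The median of all genes was 0.00. None of the 9 ligands was called, and some were scarce. Group means were 0.44 to 0.56 CPM for Gdf5 and 0.084 to 0.68 CPM for Gdf6.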

How the data were processed

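RNA sequencing was analysed in 12 libraries, 4 groups of 3. STAR 2.3.0e, HTSeq 0.6.0, DESeq2, DESeq and mm10 are named in the submitters' processing notes; which annotation release was used, and whether counting used strand, is not given in the sources used here. The deposited table holds raw read counts per gene. Per the file headers, the authors' table for each clone adds a signal per library (normalized counts), log2 fold changes, their standard errors, a score (the quotient of these) and p-values, raw and adjusted; symbols and coordinates came from these tables.

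Counts were fitted with edgeR 4.0.16 (R 4.3.3, robust quasi-likelihood, TMM) in 1 model over all libraries, with 8 residual degrees of freedom. The default filter (10 counts at the median depth in 3 libraries, 15 in total) left 15179 of 22753 genes. Calls used 0.05 after Benjamini-Hochberg adjustment over all of these. CPM uses library totals, while fitted changes and log2 CPM use effective library sizes. The prior count of 2 applies to log2 CPM only, and fitted changes kept edgeR's default.

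Replicate numbers paired the gates within a clone: deviations from group means correlated at 0.548 to 0.822 in the 6 same-numbered pairs and at -0.541 to -0.228 in the others. The pair was therefore a block in a second fit ("within pairs", 4 residual degrees of freedom). With it edgeR's biological coefficient of variation was 0.175, and 0.389 in the first fit.

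The genes, marker lists and pathway list were chosen with earlier results of these data known. All 10 genes, the targeted genes and called pathway genes were named, with the 3 genes of highest r to each (average log2 CPM of at least 1). The tests were also run on simulated data. Levels per kb divide CPM by the merged exon length of the GENCODE annotation of mm10. Alternatives were DESeq2 1.42.0, RLE size factors, no filter, only the groups compared and leaving out each library or pair.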

Additional observations from a re-analysis of the deposited data

How the results depend on the processing

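Over all libraries, Grem1, Id2 and the Smad7 change in clone 10 and over both clones kept their direction when any 1 library was left out. Changes too small for a direction turned: over the 12 removals the lowest and highest log2 changes were -0.52 and 0.21 for Smad7 in clone 4, and over both clones -0.58 and 0.064 for Bmp4, -0.74 and 0.14 for Nog, -0.34 and 0.20 for Chrd, -0.88 and 0.68 for Id1, -0.47 and 0.15 for Id3 and -0.20 and 0.051 for Smad6. Within pairs they were -0.45 and 0.031 for Nog and -0.27 and 0.086 for Chrd.

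The number of the 10 genes called over all libraries, 0 in each gate comparison, became 2 in clone 10 and 3 over both clones with the replicate block, and 1 in clone 4 and 2 over both clones with DESeq2. Within pairs, the 0 in clone 4 became 1 with DESeq2, with no filter on low counts or with only the libraries of the clone, and 0 to 1 without 1 pair; the gene was Grem1 in each. The 2 in clone 10 became 1 with only the libraries of the clone and 1 to 3 without 1 pair. The 3 over both clones became 0 to 3 without 1 pair. Over the same removals the number of all tested genes called also shifted widely. It ran from 0 to 207 in clone 4, from 132 to 657 in clone 10 and from 125 to 980 over both clones. For DESeq2, no filter and only a clone's libraries, the share of all genes called is not given here. The settings that join the block with another size factor, with no filter or with only a clone's libraries were chosen after seeing the data. The cause was not tested. The block moved the count of the 10 genes called in no other comparison. In the other lists called genes over both clones went from 0 to 6 fibroblast markers, from 4 to 9 genes of the 2-cell embryo and from 0 to 1 pathway gene. Pairs left 4 residual degrees of freedom, so small changes such as that of Bmp4 are at the limit of what 12 libraries show.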
